A study of Homo sapiens with 3 samples.

Results

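ZBTB16 encodes PLZF, a BTB zinc finger transcription factor, and holds inside its gene body one of the longer series of closely spaced FOXA2 sites that ChIP-seq found in Caco2 cells. The stretch described here is hg19 chr11:113830000-114221000, which is ZBTB16 (chr11:113930315-114121398, plus strand, 191 kb) with 100 kb on each side. Every FOXA2 peak whose midpoint fell in it is a member. Replicate 1 placed 28 of its 63949 peaks there and replicate 2 placed 20 of its 26907. A peak of replicate 1 that overlapped a peak of replicate 2 by at least 1 bp was taken as a shared site, and the region held 18 of the 24345 shared sites of the genome. The dense run near the start of the gene was chosen by the measured positions of its shared sites, which lie close together, and its scores were known at that point. Positions and scores are therefore given below as descriptions, with no test.

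Caco2 is an established line of colorectal adenocarcinoma cells that serves as a culture model for the lining of the gut. The study mapped FOXA2 in it to learn how this factor regulates genes of the intestinal epithelium. All libraries came from Caco2 cells grown in low-glucose DMEM with serum, and the labels name no treatment. The FOXA2 group has 2 replicate immunoprecipitations made with the same antibody (Santa-Cruz sc-6554), and 1 input library without antibody served only as the reference of the peak calls. Nothing in the labels tells whether separate cultures were used, so the spread between replicates may be technical. A single cell line and condition leaves the comparison of the replicates as the only one the design allows. Replicate 1 rests on 26183147 tags (sequenced fragment ends) and replicate 2 on 15756702. Each peak carries a deposited score, which is the authors' tag count after scaling to 10000000 tags and rounding, given below in normalised tags. In replicate 1 a unit of it stands for about 2.62 tags, and in replicate 2 for 1.58.

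FOXA2 is a forkhead transcription factor of endoderm-derived epithelia that can bind its sites in closed chromatin and is known for acting from enhancers as well as promoters. PLZF binds DNA through its zinc fingers and represses transcription by recruiting corepressors and histone deacetylases through its BTB domain. It is known for keeping spermatogonial stem cells, for the development of innate-like lymphocytes, as a gene induced by glucocorticoids, and as a fusion partner of the retinoic acid receptor alpha in acute promyelocytic leukaemia. On either side of ZBTB16 the nearest protein-coding genes in RefSeq order are HTR3A, a serotonin-gated ion channel subunit that lies before its start, and NNMT, an enzyme that methylates nicotinamide, after its end. Exons and introns were not used here, so sites are placed by their distance from the start and end of the gene.

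Most shared FOXA2 sites of the gene lay in one place. Of the 13 shared sites inside ZBTB16, 8 lay in a run of 31.8 kb, chr11:113948557-113980392, which is 16.7% of the length of the gene. This run began 18.2 kb after the gene's start and ended 141 kb before its end. It held 2.51 shared sites per 10 kb, against 0.314 per 10 kb in the rest of the gene, a ratio of 8.00. The flank before the gene held 0.299 shared sites per 10 kb, close to the rest of the gene. The flank after it held 0.201, which rests on 2 sites. These are local values and not a background of the genome. In replicate 2 the same interval held 9 of the gene's 15 peaks and the ratio was 7.5. In replicate 1 it held 8 of 19 and the ratio was 3.64, because 6 further weak replicate 1 peaks lay elsewhere in the gene. Density is what singled the run out, so these ratios measure its extent and are not evidence for it.

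**Figure D1:**
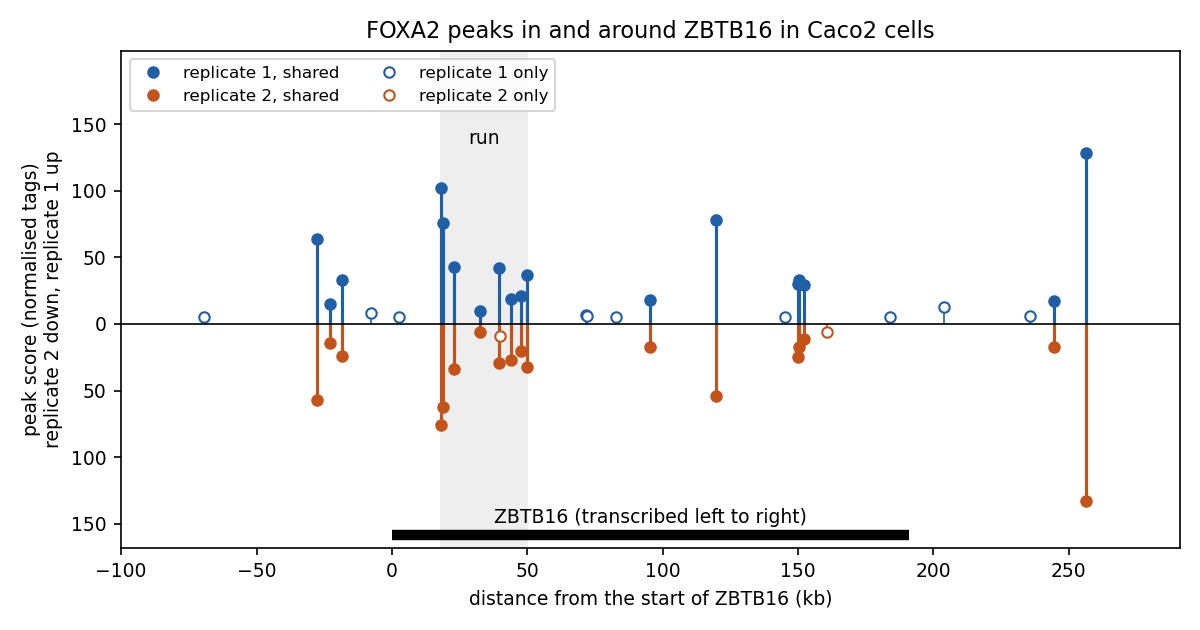
Score of every FOXA2 peak (vertical axis, normalised tags, replicate 1 upward and replicate 2 downward) against its distance from the start of ZBTB16 in kb (horizontal axis). Filled points are the 18 shared sites, open points the 10 peaks of replicate 1 only and the 2 of replicate 2 only, the grey band is the run and the black bar is the gene. The 8 sites of the run stand close together from 18.3 to 50 kb. The tallest site of the region stands beyond the gene's end, more than 10 kb from any other shared site.

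The strongest part of the run was its start. The first site, chr11:113948557-113948679, scored 102 in replicate 1 and 76 in replicate 2, a mean of 89 ± 18.4 (SD, n = 2). The next, chr11:113949150-113949272, lay 0.593 kb further on and scored 76 and 62, a mean of 69 ± 9.90. Both were among the highest 10% of shared sites by mean rank of score, and the remaining 6 sites of the run were not. Together this pair carried 50.9% of the summed score of the 8 sites in replicate 1 and 48.3% in replicate 2. In each replicate, each of the pair scored higher than any other site of the run. The third site, chr11:113953072-113953194, lay 3.92 kb beyond the pair and scored 43 and 34 (38.5 ± 6.36).

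A sparser middle followed. The fourth site, chr11:113962807-113962929, came after 9.74 kb, the widest space in the run, and scored 10 in replicate 1 and 6 in replicate 2 (8 ± 2.83). It was the weakest shared site of the whole region in both replicates. In replicate 2 only 0.193% of all peaks scored lower, so this site sat at the bottom of that list, whereas in replicate 1 59.7% scored lower. About 26.2 tags in replicate 1 and 9.45 in replicate 2 lie behind it.

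The far end of the run held 4 sites of intermediate strength within 10.6 kb. The fifth site, chr11:113969748-113969870, scored 42 and 29 (35.5 ± 9.19) and lay 6.94 kb past the weak one. The sixth, chr11:113974316-113974438, scored 19 in replicate 1 and 27 in replicate 2 (23 ± 5.66) and was the only site of the run that was higher in replicate 2. At chr11:113977853-113977975 the seventh site scored 21 and 20 (20.5 ± 0.707). The last, chr11:113980270-113980392, scored 37 and 32 (34.5 ± 3.54). These 4 sites were spaced by 4.57, 3.54 and 2.42 kb, so the spaces between neighbours narrowed toward the end. Scores did not fall steadily along the run. They were highest at its start, lowest in the middle and intermediate at the end, in both replicates.

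**Figure D2:**
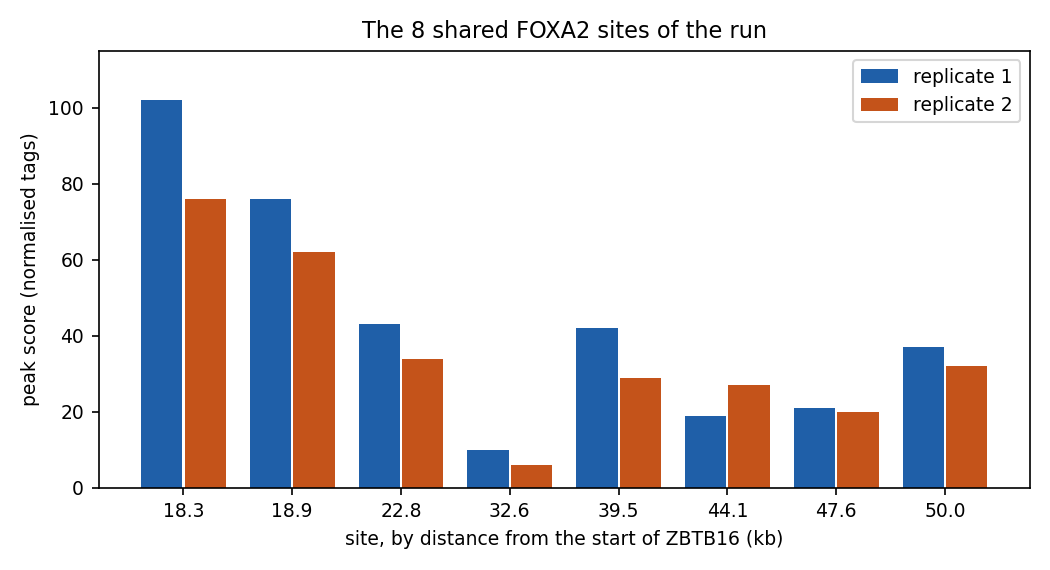
Score in normalised tags (vertical axis, from 0) of the 8 shared sites of the run in replicate 1 and replicate 2, ordered by distance from the start of ZBTB16 in kb (horizontal axis, sites not spaced to scale). The first pair is the tallest in both replicates, the site at 32.6 kb is the lowest in both, and the site at 44.1 kb is the only one with a taller replicate 2 bar.

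The continuity of the run hung on its weakest member. Without the fourth site the space it bridges would be 16.7 kb, and the run would break into 3 sites and 4 sites under the limit of 10 kb between neighbours that defines a run. Leaving out the third site or the fifth would also break it, with spaces of 13.7 and 11.5 kb, and leaving out any one of the other 5 would not. Without the fourth site the 7 others still lay in the same 31.8 kb. A limit of 5 kb divided the run into 3 sites, the lone weak site and 4 sites, and a limit of 20 kb added none, since the nearest shared sites on either side were 36.9 kb before it and 45.2 kb after it.

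Within the limits of the run, all 8 replicate 1 peaks and 8 of the 9 replicate 2 peaks were shared. Over the genome 38.1% of replicate 1 peaks and 90.5% of replicate 2 peaks were shared, and 73.6% of the replicate 1 peaks that scored at least 10, as all 8 did. Since shared sites define the run, nothing is read from these counts. The remaining replicate 2 peak, chr11:113970211-113970361, scored 9 and lay 477 bp from the centre of the fifth site's replicate 1 peak, so replicate 2 called a pair of peaks where replicate 1 called 1. The centres of that replicate 2 pair were 442 bp apart. Peaks had to be at least 244 bp apart in replicate 1 and 300 bp apart in replicate 2. Why replicate 1 has a single peak there was not tested. Peak centres of the 8 sites differed between replicates by 0 to 42 bp, against a median of 15 bp over all shared sites.

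Outside the run the gene held 5 shared sites, all of them further from the start than the run. Between the start of the gene and the run there was none. The strongest of the 5, chr11:114049931-114050053, stood alone 120 kb into the gene, with scores of 78 and 54 (66 ± 17.0, SD, n = 2). It was 24.4 kb from the nearest shared site, yet its mean score was above that of 6 of the 8 sites of the run. A weaker lone site at chr11:114025503-114025625 scored 18 and 17 (17.5 ± 0.707). Its peak centres lay 75 bp apart in the replicates, the widest offset of the region. A difference over 50 bp was found at 8.46% of all shared sites.

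A small group of 3 sites lay further on, 38.8 to 41.1 kb before the gene's end, with 0.536 and 1.80 kb between neighbours. They were chr11:114080242-114080364 with scores of 30 and 25 (27.5 ± 3.54), chr11:114080778-114080900 with 33 and 17 (25 ± 11.3) and chr11:114082573-114082695 with 29 and 11 (20 ± 12.7). In replicate 1 the 3 scored almost alike, while in replicate 2 the first scored above the last, 25 against 11. The sites of the run had a median mean score of 35, against 25 for the 5 other sites of the gene. The ranges overlapped, from 8 to 89 in the run and from 17.5 to 66 outside it. Over all peaks of replicate 2 the medians were 29 and 17, and over all peaks of replicate 1 they were 39.5 and 7, since the weak peaks of that replicate alone then count outside the run. With a score of at least 10 required in each replicate, the run by its own definition shrank to its last 4 sites. The order then turned, 28.8 against 33, with the run's first sites, its strongest pair among them, counted among 8 sites of the rest. With the limits of the run kept under that requirement, the ratio of the medians was 1.42.

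The flanks held 5 shared sites, among them the highest of the whole region. In the flank beyond the gene's end, chr11:114186774-114186896 scored 128 in replicate 1 and 133 in replicate 2 (130.5 ± 3.54, SD, n = 2). It lay 65.4 kb after the end of ZBTB16 and stood at rank 177 of the 24345 shared sites, whereas the first site of the run stood at rank 503. Its neighbour, chr11:114174897-114175019, lay 11.9 kb away and scored 17 in both replicates. NNMT follows in gene order on this side, but its hg19 position was not used, so these sites are not placed relative to it. Which gene, if any, these sites act on was not measured.

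In the flank before the gene, 3 shared sites lay 18.6 to 27.8 kb ahead of its start. The outermost, chr11:113902443-113902565, scored 64 and 57 (60.5 ± 4.95) and was also among the highest 10% of shared sites. The others scored 15 and 14 at chr11:113907350-113907472 (14.5 ± 0.707) and 33 and 24 at chr11:113911668-113911790 (28.5 ± 6.36). With 4.91 and 4.32 kb between them, they were spaced like sites of the run. Under the 10 kb limit the region thus fell into 7 groups of 3, 8, 1, 1, 3, 1 and 1 shared sites in order along the chromosome.

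The start of ZBTB16 itself had no shared site. The nearest one to it on either side was the first site of the run, 18.3 kb into the gene, followed by the site 18.6 kb before the gene. Replicate 1 alone had a weak peak 2.50 kb after the start, chr11:113932757-113932879, with a score of 5, about 13.1 tags. It also had a peak 7.84 kb before the start, chr11:113922412-113922534, with a score of 8, about 20.9 tags. At the usual ratio between the replicates these peaks would have given about 6.57 and 10.5 tags in replicate 2, or scores of 4.17 and 6.67. The weakest shared site of the region had about 9.45 tags there, between these values. The lowest score in the whole replicate 2 list was 5, above the first of these expected scores and below the second. Why replicate 2 lacks both peaks was not tested.

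Peaks found in a single replicate scored low beside most shared sites of the region. Replicate 1 had 10, with scores of 5 to 13 and a median of 5.5, of which 6 lay in the gene outside the run and 4 in the flanks. The highest, with a score of 13, lay 12.8 kb after the gene's end at chr11:114134127-114134249. It was above the median of 8 over all replicate 1 peaks. At the usual ratio between the replicates it would have given about 17.1 tags in replicate 2, and why that replicate lacks it was not tested. A pair of weak ones, chr11:114001830-114001952 with a score of 7 and chr11:114002461-114002583 with 6, lay 631 bp apart about 72 kb into the gene. Replicate 2 had 2 such peaks, the one of score 9 inside the run and one of score 6 at chr11:114090963-114091113. Of the 19 replicate 1 peaks of the region that scored at least 10, 18 were shared, against 73.6% of all replicate 1 peaks of that score, but 8 of the 18 belong to the run, which is defined by sharing. Of the 9 that scored less, none was shared, against 14.0%, a background under which few would be. The weakest shared site scored 10 in replicate 1, exactly at this limit.

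The run, chosen for its density with scores known, held 40.7% of the summed peak score of the region in replicate 1 and 44.0% in replicate 2, on 8.14% of its length, a share that follows in part from that choice. The summed score was 11.0 normalised tags per kb in the run and 1.39 in the rest of the gene in replicate 1, and 9.27 and 0.816 in replicate 2. The highest site beyond the gene's end by itself scored more than any site of the run, in both replicates.

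Most shared sites of the region were strong for the genome. The run makes up 8 of the 18 and was chosen with its scores known, so the shares below are descriptions only. A mean score of at least 20 was reached by 14 of the 18, and by 7 of the 8 in the run, against 33.9% of all shared sites. Among the highest 10% stood 5 of the 18, and 2 of the 8 in the run, against 9.99%. The 5 were the first pair of the run, the lone site 120 kb into the gene, the outermost site before the gene and the last site after it. The median mean score was 28 in the region and 35 in the run, against 14.5 over all shared sites.

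Replicate 1 gave the higher score at 15 of the 18 shared sites, against 63.7% of all shared sites, replicate 2 at 2 of them, against 29.7%, and 1 site was equal. Taken as replicate 1 over replicate 2, the median ratio was 1.21 in the region and 1.25 in the run, against 1.20 over all shared sites. In the run the ratio ranged from 0.704 to 1.67. Intervals of each ratio were computed from the approximate tags (95%, exact binomial) and cover counting error only. At 4 of 18 sites this interval left out the median ratio of the genome, and 1 of these was in the run. Among all shared sites 21.0% did so, so the share in the region was near the background.

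Those 4 sites went in both directions. The sixth site of the run had a ratio of 0.704 (0.458 to 1.09). At the highest site of the region the ratio was 0.962 (0.807 to 1.15), its score being nearly equal in both replicates. In the group of 3 near the gene's end, the ratios went from 1.20 (0.808 to 1.81) to 1.94 (1.25 to 3.12) and 2.64 (1.55 to 4.73). At the first site of the run the ratio was 1.34 (1.08 to 1.68), which includes the median of the genome. The fourth site, the weak one, had the widest interval of the run, with a ratio of 1.67 (0.767 to 3.96). Across the 18 sites Spearman's rho between the replicates' scores was 0.91, and it was 0.95 over the 8 sites of the run. These points share their libraries and antibody and are not replicates.

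**Figure D3:**
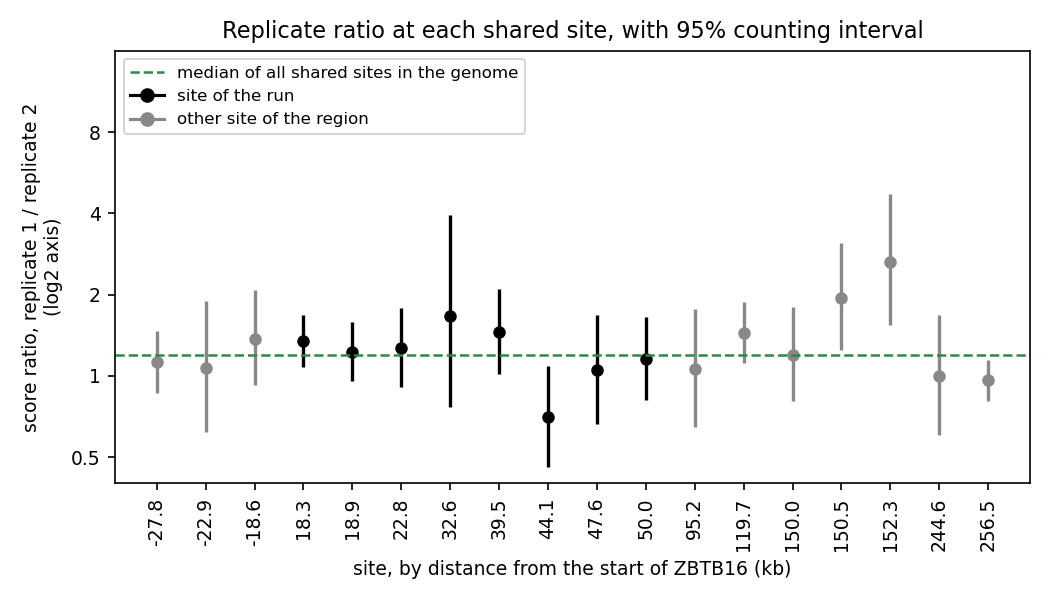
Ratio of the replicate 1 score to the replicate 2 score (vertical axis, log2 scale) at the 18 shared sites, ordered by distance from the start of ZBTB16 in kb (horizontal axis, not to scale, negative before the gene). Bars are 95% counting intervals, black marks sites of the run, grey other sites, and the dashed line is the median of all shared sites, 1.20. The site at 44.1 kb lies below the line with its whole interval, as does the last site, and the sites at 150.5 and 152.3 kb lie above it.

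The counts of the region can be set beside those of other stretches as a description only, since the region was chosen for its run of sites. The genome was tiled with windows of the region's length, and windows with a peak in either replicate were kept. They held a median of 2 shared sites, and 31 of 6725 other windows held 18 or more, or 38 on a shifted grid. For windows of the gene's length the median was 1, and 34 of 12132 other windows held the 13 found in ZBTB16 or more, or 25 on the shifted grid. Stretches as long as the run that start at a shared site reached 8 sites at 4 other places, with 9 at most. The number of sites in the run was thus not the highest.

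Among runs, that of ZBTB16 ranked higher by its number of sites and their scores than by tight spacing. Sites in a run of at least 5 made up 2.25% of all shared sites, in 99 runs. By number of sites the ZBTB16 run held rank 3, level with another run of 8. In median mean score it held rank 8 of the 99 with 35, where the median run had 16. In sites per 10 kb it held rank 54, with 2.51 against a median of 2.63. Its summed mean score, 318, held rank 6. Its first pair carried 49.7% of that sum, and in the median run the strongest pair carried 60.4%, a share that also depends on how many sites a run has.

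The most similar runs, taken as the 3 of at least 7 sites nearest in sites per 10 kb out of 12 others, differed in strength. One on chr11:20016870-20053492 had 10 sites at 2.73 per 10 kb and a median mean score of 21. Another on chr2:216529731-216558517 had 8 sites at 2.78 per 10 kb, a median of 14 and no site above 28.5. The third, on chr5:124331237-124362998, had 7 sites at 2.20 per 10 kb and a median of 18.5, but its strongest site reached 138. Next to them the ZBTB16 run had the highest median, while 2 of the 3 had a stronger top site than its 89. Of the 12 other runs of at least 7 sites, the median mean scores went from 9.5 to 50, so the ZBTB16 run did not lie outside their range. On chromosome 11 there were 9 runs of at least 5 sites, and the highest median of all 99, 97.5, belonged to a run of 5 on chr11:110169184-110190433.

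The calls themselves set limits on what a run can show. Each peak had to exceed the surrounding 10000 bp by 4-fold, so a weak peak beside strong ones is harder to call, and how many were dropped inside the run is not given by the lists. Over the genome this filter took away 3180 of the 79191 candidates of replicate 1 and 818 of the 31642 of replicate 2. No peak lay near the limits chosen for the region. The outermost members were a replicate 1 peak of score 5, 30.8 kb inside the lower limit, and the strong site of 128 and 133, 34.2 kb inside the upper one. The first peaks outside, both of score 5 and from replicate 1 alone, were 32.1 kb below and 42.9 kb above.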

How the data were processed

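FOXA2 ChIP-seq peaks of 2 Caco2 replicates were used, and the input library entered through the peak calls alone. The submitters' processing notes name the build hg19 and the tools Bowtie 1.0.0 and HOMER 1.2. HOMER findPeaks ran once for each replicate in its factor style with input as the reference, per the file headers. A peak had to exceed input and the 10000 bp around it by 4-fold, each at a Poisson p of 0.0001, with a false discovery rate of 0.001. All deposited peaks of replicate 1 span 123 bp and those of replicate 2 span 151 bp. The deposited score is the authors' tag count after scaling to 10000000 tags and rounding to whole numbers, and approximate tags were computed back from it.

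From these lists, peaks were joined by an overlap of at least 1 bp, and the shared site is given at its replicate 1 position, 1-based. Sites no more than 10 kb apart by midpoint form a run. Ratio intervals are exact binomial intervals at 95%. The pairing, run and interval functions were tested on simulated data. Computations used Python 3.11.15, numpy 2.4.6, pandas 2.3.3 and scipy 1.17.1. Each site of the run is named, as are, in every other segment, up to 3 shared sites with the best mean rank, the strongest peak of a single replicate, and the 3 most similar runs. A few more peaks were named after their values were seen. The region, the run and the lists were chosen with earlier results of these data known. A genome or annotation on hg19 was not used here, so motifs, exons and counts for other genes were left out. RefSeq (GRCh38.p14) gave gene names and their order only. Other overlap rules, score limits, spacing limits and single replicates were tried as alternatives.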

Additional observations from a re-analysis of the deposited data

How the results depend on the processing

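The 18 shared sites of the region became 17 with a reciprocal overlap of 50% or a score of at least 10 in each replicate, and stayed 18 with midpoints within 100 or 500 bp. The run of 8 sites fell to 4 with a spacing limit of 5 kb and with a score of at least 10 in each replicate, which removes the weakest site by construction. It held 8 to 9 peaks when either replicate was left out. The density ratio of run to rest of the gene went from 8.00 to between 3.64 and 7.5 when a replicate was left out, the lower value without replicate 2, and was 7.0 to 10.0 under the other alternatives. The ratio of median scores, 1.4, was 0.871 with a score of at least 10 in each replicate, and 1.05 with a spacing limit of 5 kb. Under both limits the run kept only its last 4 sites, and its earlier sites counted in the rest of the gene, with 8 and 9 sites. When a replicate was left out the ratio of medians was 1.71 to 5.64. The higher value came without replicate 2, where weak peaks outside the run enter the median. The median ratio of the replicates in the run, 1.25, was 1.01 once scores were divided by the median of shared sites. The score limit with the limits of the run kept was chosen after seeing the data. The motif search and the counts for lists of other genes were not run. No paired analysis was possible because the design holds a single group of 2 libraries. Depth limits the weakest sites, where a score of 6 in replicate 2 stands for about 9.45 tags.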
